A study of Mus musculus with 12 samples.

Results

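The mitochondrial ribosomal proteins are the protein subunits of the ribosome that works inside mitochondria, and all of them are encoded by nuclear genes. Their transcripts were followed here in the liver of db/db mice that had taken up molecular hydrogen (H2). Members were all probes whose RefSeq record belonged to a mouse gene with a symbol of the form Mrpl or Mrps followed by a number, with the probe of highest mean signal standing for each gene. This gave 78 genes on 99 probes, among 20283 gene symbols and 39429 probes on the array. By symbol, 49 were counted as large subunit (Mrpl) and 29 as small subunit (Mrps). The place of each protein in the ribosome was not checked beyond its symbol. All but 1 of the 78 genes gave a signal above background in both dyes on all 12 arrays, which left 77. Mrpl21 was above background on 0 arrays and is left out of every count that follows.

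All mice were male db/db animals, which lack a working leptin receptor and are obese and diabetic, and were 8 weeks old per the labels. Liver RNA of 3 mice was mixed into each pool, and each array set 1 treated pool, labelled with Cy5, against 1 control pool, labelled with Cy3. In the first 3 groups the treated mice received MgH2, a solid that releases H2 in the stomach, through a stomach tube for 1, 3 or 7 days, with 1 dose of 0.9 mg/kg each day, and the controls received Mg(OH)2, the product left when MgH2 has reacted. In the fourth group the treated mice drank H2-water (0.8 mM H2) for 14 days and the controls drank degassed water. There were 3 arrays in each of the 4 groups. A value below is the log2 ratio of the treated pool over the control pool on 1 array, so that a positive value means a higher signal in the treated pool. On every array the treated pool carried the same dye, so in the ratio of a single group the treatment and a dye bias of the probe cannot be told apart; a dye bias that is the same on every array cancels in a difference between days.

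Mitochondria keep a small genome of their own, and the proteins it encodes are core parts of the respiratory chain and of ATP synthase. The mitochondrial ribosome makes only these proteins. Its small subunit holds the messenger RNA and decodes it, and its large subunit joins the amino acids and passes the new chain out beside the inner membrane. Many of its subunits have counterparts in bacterial ribosomes and many others are found only in mitochondria. The liver is rich in mitochondria, and transcription of these genes is known to respond to nuclear respiratory factors and to the coactivator PGC-1α (Ppargc1a).

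Between 51.8% and 56.6% of the probes were above background on an array. The 7 hepatocyte markers checked (Alb, Ttr, Apoa1, Apob, Serpina1a, Cyp2e1 and Tat) summed to at least 550600 signal units in the control channel, against at most 600.3 units for 5 markers of pancreas acinar cells and 82.0 units for 3 markers of skeletal muscle, of which 1 and 0 were above background on all arrays of a group. The 7 Kupffer cell and leukocyte markers (Ptprc, Adgre1, Clec4f, Cd5l, Lyz2, Cd74 and Cd3e) moved with the treatment as a sum, though not each of them. The log2 ratio of their summed signal lay between -0.35 and -0.07 at 1 day, between -0.44 and -0.40 at 3 days, between -0.53 and -0.38 at 7 days of MgH2 and between -0.17 and 0.24 after H2-water. Of the 7, 1, 3, 4 and 1 were called lower in these groups, beside 4.21%, 11.1%, 14.2% and 3.9% of all probes. Cd3e was called higher at 3 days with a mean of 0.11 (adjusted P = 0.0382), and Adgre1 had a mean of 0.17 at 1 day. The summed hepatocyte signal went the other way under MgH2, with log2 ratios from 0.03 to 0.08 at 1 day, 0.13 to 0.20 at 3 days and 0.18 to 0.28 at 7 days. After H2-water the ratio of the sum lay between -0.01 and 0.03, with 4 of the 7 markers below 0 on all 3 arrays. Called higher were 0, 2, 4 and 0 of the markers in the 4 groups, beside 5.14%, 12.3%, 15.3% and 4.93% of all probes. Apob was called lower at 7 days, with a mean of -0.34 (adjusted P = 0.0118). In such pooled liver RNA, fewer cells of a type and less RNA per cell cannot be told apart, and the part of these shifts in the results below was not tested.

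As a group the mitochondrial ribosomal proteins stayed close to equal expression in treated and control pools. The median log2 ratio over the 77 members was -0.03 at 1 day, 0.01 at 3 days and -0.001 at 7 days of MgH2, and 0.01 after H2-water. Over all probes tested the medians were -0.003, 0.002, 0.006 and -0.005. The median on single arrays ran from -0.04 to 0.005 at 1 day, from -0.02 to 0.06 at 3 days, from -0.02 to 0.04 at 7 days and from 0.018 to 0.023 after H2-water. In each of the MgH2 groups the array medians therefore lay on both sides of 0, and after H2-water all 3 lay just above it. These levels follow the scaling: with each array centred on the median of all its probes the members' medians were -0.08, 0.003, -0.11 and 0.08 in the 4 groups, beside -0.05, -0.003, -0.11 and 0.06 over the probes tested, and with channels scaled to equal totals that after H2-water turned to -0.01 and that at 3 days to -0.02, beside -0.03 and -0.03 over the probes tested. Genes of the large and the small subunit, by symbol, had medians of -0.02 and -0.04 at 1 day and 0.02 and -0.001 at 3 days. At 7 days they had -0.01 and 0.003, and after H2-water 0.01 and 0.01. These medians lay close together. So did those of the 44 measured members listed with a counterpart in bacteria and the 33 with none listed, at 0.01 and 0.02 at 3 days and -0.01 and 0.001 at 7 days. This division was made from general knowledge after the values had been seen, and a gene with none listed may still have one.

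**Figure D1:**
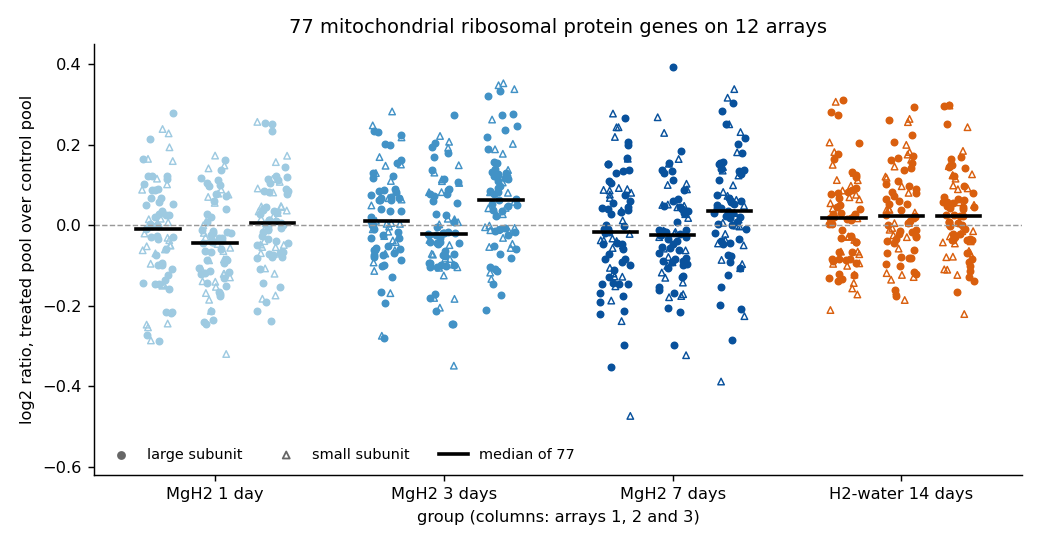
Log2 ratio of treated over control pool (vertical axis) for the 77 measured mitochondrial ribosomal protein genes on each of the 12 arrays (columns, 3 for each group). Filled circles are Mrpl genes (large subunit by symbol), open triangles Mrps genes (small subunit by symbol), and black bars the median of the 77. The medians lie between -0.04 and 0.06 on all arrays, while single genes spread to both sides.

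Single members deviated by little. The largest mean change of any member was 1.17-fold at 1 day, 1.22-fold at 3 days, 1.32-fold at 7 days and 1.22-fold after H2-water, and the SD over the 77 members was 0.10, 0.11, 0.13 and 0.11 log2 units in these groups. The members were bright, with a median signal of 3522 units against 362 to 375 units over all probes tested in the MgH2 groups and 318 units after H2-water, and the median standard error of their log2 ratio was 0.04 against 0.07 over all probes in each group. A member was called changed where limma, fitted over all 12 arrays, gave an adjusted P under 0.05 (Benjamini-Hochberg over all probes tested).

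At 1 day of MgH2, 6 members (7.79%) were called higher and 9 (11.7%) lower, beside 5.14% and 4.21% of all probes. At 3 days 18 (23.4%) were higher and 6 (7.79%) lower, beside 12.3% and 11.1%. At 7 days 12 (15.6%) were higher and 12 (15.6%) lower, beside 15.3% and 14.2%. After H2-water 11 (14.3%) were higher and 3 (3.9%) lower, beside 4.93% and 3.9%. The share of members called was thus near the background at 7 days in both directions and for lower calls after H2-water. It was above the background at 1 day in both directions, more so for lower calls, and for higher calls at 3 days and after H2-water. For lower calls at 3 days it was below. The part of the members' smaller standard error in these shares was not tested. The counts fell whichever array of the group was left out. At 1 day they went to 1 higher and 1 to 5 lower, beside 1.54% to 2.28% and 0.523% to 1.6% of all probes, and at 3 days to 8 to 9 higher and 1 to 5 lower, beside 6.1% to 8.16% and 4.3% to 6.87%. At 7 days they went to 7 to 8 higher and 5 to 10 lower, beside at least 7.96% and 7.8%, and after H2-water to 3 to 4 higher and 0 lower, beside 1.48% to 1.87% and 0.608% to 0.908%. Of the 15, 24, 24 and 14 calls, 2, 8, 10 and 3 held whichever array was left out. The counts also rest on the spread shared over 12 arrays and on scaling. With a spread estimated from the 3 arrays of a group alone they fell to 0, 0, 3 and 2 members in the 4 groups. Of all probes, 0.503%, 0.952%, 6.02% and 1.83% were then called higher and 0.0102%, 0.556%, 5.16% and 0.631% lower. The members showed no clear excess over these shares. Each array centred on the median of all its probes, which put the median of the probes tested at -0.11 at 7 days and 0.06 after H2-water, turned the split at 7 days to 2 higher and 26 lower, beside 4.82% and 27.1% of all probes, and after H2-water to 15 higher and 0 lower, beside 6.21% and 0.47%.

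The members that the results turn on were 4 that passed the test in each of the groups and 4 whose ratio differed between 1 and 7 days of MgH2. The 150 bases before their transcription starts are shown so that the promoters of these genes can be read side by side, in RefSeq's GRCm38.p6 sequence, 5′ to 3′ toward the gene. Capitals mark the letters CGCANGCG, the core of the site of nuclear respiratory factor 1.
Mrps24, chr11:5707702-5707851, minus strand: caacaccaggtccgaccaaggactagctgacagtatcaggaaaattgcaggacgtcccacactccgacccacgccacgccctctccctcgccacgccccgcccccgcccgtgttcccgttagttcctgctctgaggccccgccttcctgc
Mrps18c, chr5:100798609-100798758, plus strand: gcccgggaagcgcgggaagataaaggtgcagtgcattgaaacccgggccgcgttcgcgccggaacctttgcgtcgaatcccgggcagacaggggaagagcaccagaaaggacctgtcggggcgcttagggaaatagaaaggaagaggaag
Mrpl44, chr1:79775868-79776017, plus strand: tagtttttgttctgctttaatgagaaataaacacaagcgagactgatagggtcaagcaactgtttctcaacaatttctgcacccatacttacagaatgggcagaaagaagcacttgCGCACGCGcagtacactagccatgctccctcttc
Mrps15, chr4:126046778-126046927, plus strand: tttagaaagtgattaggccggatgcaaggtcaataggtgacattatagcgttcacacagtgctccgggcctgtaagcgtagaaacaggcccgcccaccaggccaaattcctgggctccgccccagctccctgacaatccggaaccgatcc
Mrpl47, chr3:32736756-32736905, minus strand: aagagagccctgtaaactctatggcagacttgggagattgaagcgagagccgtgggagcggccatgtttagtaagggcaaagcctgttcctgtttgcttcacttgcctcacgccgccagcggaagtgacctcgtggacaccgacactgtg
Mrps6, chr16:92058186-92058335, plus strand: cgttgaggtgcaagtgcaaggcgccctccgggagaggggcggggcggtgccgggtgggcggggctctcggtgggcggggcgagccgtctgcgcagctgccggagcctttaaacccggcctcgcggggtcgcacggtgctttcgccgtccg
Mrpl35, chr6:71823785-71823934, minus strand: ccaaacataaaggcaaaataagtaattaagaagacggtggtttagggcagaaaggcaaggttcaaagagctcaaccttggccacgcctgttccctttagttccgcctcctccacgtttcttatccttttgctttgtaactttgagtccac
Mrpl50, chr4:49521084-49521233, minus strand: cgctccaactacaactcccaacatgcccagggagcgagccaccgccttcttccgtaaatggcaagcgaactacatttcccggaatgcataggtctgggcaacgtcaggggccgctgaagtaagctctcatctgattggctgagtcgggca

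Windows of 250 bases before to 50 bases after the start were given for 69 of the 78 members, 75 windows in all. On either strand CGCANGCG stood in 20 member windows (26.7%) against 8.21% of all 32851 windows, CCGGAAG, the core bound by ETS factors such as GABPA, in 26 (34.7%) against 8.86%, and AAGATGGC, the core bound by YY1, in 12 (16.0%) against 2.75%. Among the genes shown, Mrpl44 had CGCANGCG starting 34 bases before the start, Mrps18c had CCGGAAG starting 156 bases before it, just outside the stretch shown, and Mrps24 and Mrpl35 had AAGATGGC, or its reverse complement, from base 37 and base 24 after it. No match was found for the other 4 in their windows. The 20 measured members with CGCANGCG had median log2 ratios of -0.01, 0.05, 0.05 and 0.03 in the 4 groups. The 48 without it had -0.04, 0.01, -0.02 and 0.01. For CCGGAAG the medians were 0.003, 0.04, 0.03 and 0.05 with it and -0.04, 0.01, -0.001 and 0.01 without. For AAGATGGC they were -0.02, 0.01, -0.06 and 0.01 with it and -0.03, 0.02, 0.005 and 0.01 without. These differences were not tested, and those by CGCANGCG were particular neither to this motif nor to 3 and 7 days. These matches describe letters, not bound sites.

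In the small subunit, Mrps24, which lines the path by which messenger RNA enters, had the highest ratio at 1 day. Its log2 ratios were 0.24, 0.17 and 0.26 at 1 day, 0.22, 0.22 and 0.34 at 3 days, 0.24, 0.27 and 0.32 at 7 days, and 0.21, 0.26 and 0.24 after H2-water. All 12 values lay above 0, with group means of 0.22, 0.26, 0.28 and 0.23, and no difference between days of MgH2 passed the test. Above 0 on all 12 arrays were 15 members (19.5%) and below it 7 (9.09%), beside 7.26% and 5.79% of all probes. The arrays share 1 dye orientation and the MgH2 groups may share control pools, so the 12 values are not independent. The adjusted P of Mrps24 was 0.00584, 0.00118, 0.000573 and 0.0042. It stayed under 0.05 in each group whichever of its arrays was left out (at most 0.0462), but was 0.0688 at 1 day with median-centred arrays. Mrps18c, counterpart of bacterial S18, had means of 0.17, 0.28, 0.21 and 0.15, and its lowest single value was 0.10. Its adjusted P was 0.0201, 0.000978, 0.00252 and 0.0356. With any 1 array left out it no longer passed at 1 day (0.083 to 0.095) or after H2-water (0.0917 to 0.19), and with median-centred arrays it did not pass at 1 or 7 days (0.12 and 0.109).

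Mrps15, which binds the ribosomal RNA of the small subunit, was lower in every group, with log2 ratios of -0.25, -0.19 and -0.17 at 1 day, -0.17, -0.18 and -0.13 at 3 days, -0.24, -0.18 and -0.23 at 7 days, and -0.10, -0.19 and -0.11 after H2-water. No array reached 0, and the adjusted P was 0.0058, 0.0072, 0.00128 and 0.033. The call after H2-water was lost whichever array was left out (0.103 to 0.184) and with median-centred arrays, where the mean was -0.07 (0.479), and the call at 3 days was lost without array 2 (0.0504). Mrps10, a subunit of the head of the small subunit, had means of -0.17 at 1 day, -0.13 at 3 days, -0.16 at 7 days and -0.20 after H2-water, and all but the 3-day mean (adjusted P = 0.0607) passed. Its calls at 7 days and after H2-water were lost whichever array was left out (0.0534 to 0.11 and 0.0766 to 0.132), and its 1-day call held in 1 of 3 such fits. With median-centred arrays Mrps10 did not pass after H2-water (0.153).

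Other small subunit genes passed in some groups. Mrps9, whose bacterial counterpart reaches toward the decoding centre, was lower at 1 day (-0.15, -0.32 and -0.18; adjusted P = 0.0165) and had a mean of 0.03 after H2-water. Mrps33, found only in mitochondria, had means of 0.14 at 1 day and 0.17 at 3 days (adjusted P = 0.0227 and 0.00483). Mrps23, also specific to mitochondria, gave 0.25, 0.19 and 0.35 at 3 days and 0.28, 0.23 and 0.34 at 7 days (adjusted P = 0.00163 and 0.000785), against a mean of 0.11 at 1 day that did not pass (adjusted P = 0.102). Mrps26 had its highest mean after H2-water, with 0.31, 0.26 and 0.30 (adjusted P = 0.00687). Mrps6, described further below, was the lowest member of all at 7 days.

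In the large subunit, Mrpl44, which has the fold of an RNase III enzyme, was higher in each group, and the arrays after H2-water stood closest together. Its values were 0.11, 0.10 and 0.25 at 1 day, 0.15, 0.18 and 0.28 at 3 days, 0.14, 0.15 and 0.18 at 7 days, and 0.28, 0.29 and 0.30 after H2-water. The adjusted P was 0.031, 0.00547, 0.0126 and 0.00189. The 1-day call was lost whichever array was left out (0.0732 to 0.157), the 7-day call held in 1 of 3 such fits, and neither passed with median-centred arrays (0.241 and 0.573). Mrpl39, a relative of threonyl-tRNA synthetases, had means of 0.25 at 3 days, 0.23 at 7 days and 0.23 after H2-water (adjusted P = 0.00806, 0.00898 and 0.0214), beside 0.11 at 1 day (adjusted P = 0.197). Mrpl20, which binds the large ribosomal RNA, had means of 0.25 at 3 days and 0.23 at 7 days (adjusted P = 0.00353 and 0.00325).

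Mrpl4, a protein of the wall of the exit tunnel, was the lowest large subunit member at 3 and 7 days. Its log2 ratios were -0.27, -0.11 and -0.14 at 1 day, -0.28, -0.24 and -0.21 at 3 days, -0.35, -0.17 and -0.28 at 7 days, and -0.09, -0.12 and -0.14 after H2-water. All 12 values were below 0, as for 9.09% of the members and 5.79% of all probes. The adjusted P was 0.0322, 0.004 and 0.00169 in the MgH2 groups and 0.134 after H2-water. Mrpl52, specific to mitochondria, was also below 0 on every array, with means of -0.19, -0.19 and -0.23 in the MgH2 groups and -0.10 after H2-water, which did not pass (adjusted P = 0.128). Mrpl51, with means of -0.18, -0.14 and -0.15 in the MgH2 groups, passed in these and not after H2-water, where its mean was -0.06. Mrpl14, at the face that meets the small subunit, fell at 3 and 7 days, to means of -0.14 and -0.19. Mrpl10, at the base of the stalk that binds elongation factors, passed on its brighter probe only at 3 days, with a mean of -0.13, and on its second probe at 1, 3 and 7 days, with -0.22, -0.17 and -0.15. Whether these differences between MgH2 and H2-water exceed the error was not tested, since agent, duration, slide and scanner software differed together.

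The remaining large subunit genes named here moved in 1 or 2 groups. At 1 day Mrpl54 and Mrpl22 were higher, with means of 0.19 and 0.12 (adjusted P = 0.0362 and 0.0457), and Mrpl38, Mrpl2 and Mrpl15 were lower, with means of -0.20, -0.18 and -0.15 (adjusted P = 0.0147, 0.0058 and 0.0466). The calls of Mrpl54, Mrpl22 and Mrpl15 were lost whichever array was left out. Mrpl2, part of the core around the peptidyl transferase centre, was lower after H2-water too, with -0.13, -0.18 and -0.17 (adjusted P = 0.0102), and this call was likewise lost whichever array was left out. Mrpl27, which sits near that centre, rose after H2-water on its brighter probe, with 0.27, 0.21 and 0.25 (adjusted P = 0.00463), while its MgH2 means lay between -0.02 and 0.03.

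**Figure D2:**
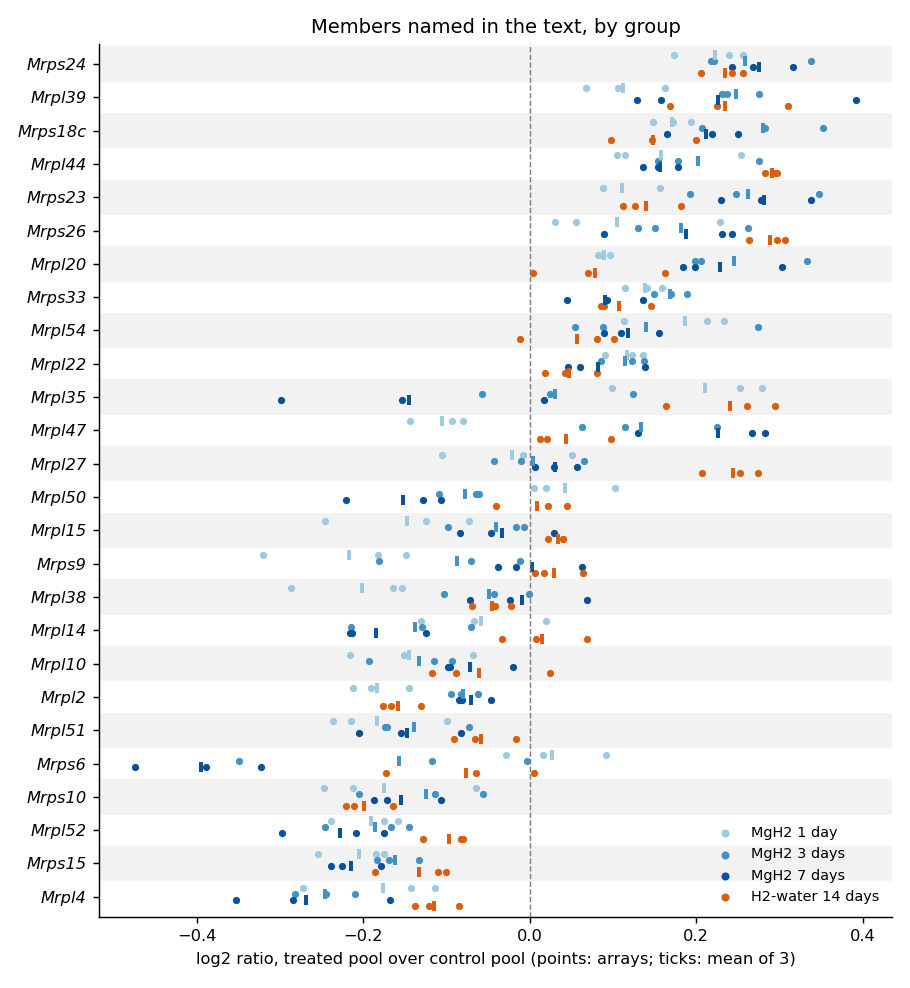
Log2 ratio of treated over control pool (horizontal axis) for the members named in the text (rows, ordered by their mean over the groups); points are single arrays, vertical ticks the mean of 3 arrays, and colours the groups. Mrps24 lies above 0 and Mrps15 and Mrpl4 below 0 on all arrays, while Mrps6 and Mrpl35 spread between groups.

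The day of MgH2 treatment was examined next, by differences between the ratios at 1, 3 and 7 days. From 1 to 3 days 61 of 77 members had a positive difference, with a median of 0.04 against 0.006 over all probes tested, and 55 of the differences were smaller than 0.1. None passed: limma called 0 members at an adjusted P under 0.05, and of all probes 0.0156% rose and 0.0052% fell. At an unadjusted P under 0.05 there were 10 members, beside 2964 of 19228 probes. Positive differences were also found for 65 of 75 subunits of oxidative phosphorylation, with a median of 0.04. For the cytosolic ribosomal proteins they were found in 34 of 80, with a median of -0.01. The 1 slide that held arrays of both days had all arrays of 1 day but only array 1 of 3 days, and there the members' median difference was 0.04. From 3 to 7 days 74 of 77 differences were smaller than 0.1, with a median of -0.02, and limma called 0 members and 0% of all probes in either direction; 2 members and 905 of 19109 probes had an unadjusted P under 0.05.

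From 1 to 7 days 1 member rose and 3 fell, beside 3.25% and 3.69% of all probes, and the median over the members was 0.03. Mrpl47, the counterpart of bacterial L29 near the tunnel exit, rose from -0.14, -0.09 and -0.08 at 1 day to 0.27, 0.13 and 0.28 at 7 days, with 0.23, 0.11 and 0.06 at 3 days. The difference between 7 and 1 days was 0.33 ± 0.06 (SE, adjusted P = 0.0166). All its 7-day arrays lay above those of 1 day, as for 15.4% of all probes. Its second, dimmer probe moved likewise, from a mean of -0.23 to 0.06 (difference 0.29, adjusted P = 0.0263).

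Mrps6, the counterpart of bacterial S6, fell from 0.02, -0.03 and 0.09 at 1 day to -0.47, -0.32 and -0.39 at 7 days, the largest fall of a member, with -0.003, -0.35 and -0.12 at 3 days. The difference was -0.42 ± 0.09 (SE; adjusted P = 0.0238). Mrpl35 fell from 0.28, 0.10 and 0.25 to -0.30, -0.15 and 0.02 (difference -0.35 ± 0.09, adjusted P = 0.0389); its probe was among the dimmer ones, with a mean signal of 174 units. It was higher after H2-water, with 0.16, 0.26 and 0.29 (adjusted P = 0.0415). Mrpl50, specific to mitochondria, fell from 0.10, 0.02 and 0.005 to -0.22, -0.13 and -0.11 (difference -0.19 ± 0.05, adjusted P = 0.0473), and its second probe gave a difference of -0.12 that did not pass (adjusted P = 0.26).

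In these 4 genes the mean of the treated channel moved more than that of the control channel. The days of MgH2 may share control pools, so a steady control channel cannot show that the change came from the treated mice. For Mrpl47 the signal relative to the 75th percentile of the channel was 2.14 ± 0.01 log2 units at 1 day and 2.08 ± 0.06 at 7 days in the control pools (SD, n = 3) and 2.04 ± 0.04 and 2.31 ± 0.06 in the treated pools. For Mrps6 it was 1.90 ± 0.10 and 1.97 ± 0.06 in the control pools and 1.93 ± 0.05 and 1.58 ± 0.14 in the treated pools. Mrpl35 went from -1.07 ± 0.12 to -1.01 ± 0.17 in the control and from -0.86 ± 0.06 to -1.14 ± 0.16 in the treated pools, with a wide spread between arrays in both. Mrpl50 went from 2.31 ± 0.03 to 2.32 ± 0.03 in the control and from 2.36 ± 0.06 to 2.18 ± 0.09 in the treated pools.

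The arrays of 1 day lay on a slide that held no array of 7 days, and the 2 days could be linked only through the 3-day arrays. With the slide as a fixed block, an alternative added after the data were seen, none of the 4 genes passed: Mrpl47 gave 0.44 (adjusted P = 0.647), Mrps6 -0.19 (0.767), Mrpl35 -0.57 (0.647) and Mrpl50 -0.19 (0.701), with limma calling 0 of all probes and 1424 of them at an unadjusted P under 0.05. A spread estimated from the 6 arrays alone gave adjusted P values of 0.0677, 0.0528, 0.121 and 0.147. Without 7-day array 1 or 3 the adjusted P of Mrpl47 was 0.0531 or 0.0619. With 1 array left out, Mrps6 passed only without 7-day array 2 (0.0415) and Mrpl35 only without 7-day array 3, and Mrpl50 passed in no case. Between the same days the Kupffer cell and leukocyte markers had a median difference of -0.24, with 7 of 7 below 0 and 0 called, and of the hepatocyte markers Alb rose by 0.33 (adjusted P = 0.0152) and Apob fell by 0.47 (adjusted P = 0.039). Their part in these 4 results was not tested.

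**Figure D3:**
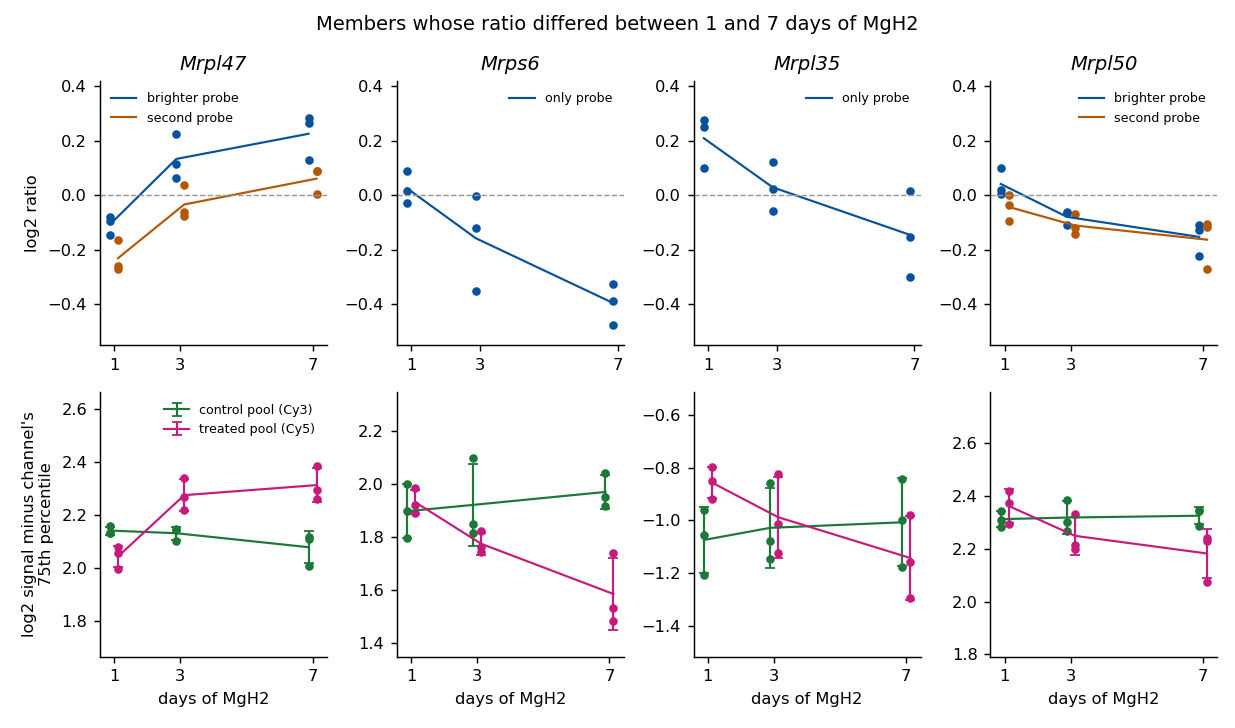
The 4 members whose ratio differed between 1 and 7 days of MgH2 (columns), by day of treatment (horizontal axis). The top panels give the log2 ratio on each array with lines through the means (blue, brighter or only probe; orange, second probe) and the bottom panels the log2 signal minus the 75th percentile of the channel in control (green) and treated pools (pink), with SD bars over 3 arrays. Mrpl47 goes from -0.11 to 0.23 and Mrps6 from 0.03 to -0.40.

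Probes of one gene did not always give the same ratio. There were 2 probes for 21 members, and both were above background on all arrays for 20. The signs of their means were equal in 12, 13, 14 and 10 of these 20 genes at 1, 3 and 7 days of MgH2 and after H2-water, and the median distance between probes was 0.10, 0.12, 0.11 and 0.11, similar to the SD over all members. Of the genes whose brighter probe was called, 4, 10, 10 and 5 in the 4 groups, the second probe was called in the same direction in 1, 3, 4 and 2. In differences between days the probes lay nearer, with median distances of 0.04 from 1 to 3 days and 0.05 from 1 to 7 days, and signs were equal in 16 and 16 of 20.

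Mrpl27 had the widest gap at 1 and 3 days. Its 2 probes had similar signals of 7434 and 6981 units, but the second gave 0.33, 0.32, 0.33 and 0.32 in the 4 groups, against -0.02, 0.004, 0.03 and 0.24 on the brighter one. Mrpl40 was the opposite case, with 0.09, 0.24, 0.20 and 0.14 on 1 probe and 0.07, 0.26, 0.23 and 0.14 on the other. For Mrpl4 the second probe was lower too, at -0.07, -0.11, -0.15 and -0.05. For Mrps23 it lay at -0.13, 0.001, 0.02 and -0.09 and did not pass in any group, and for Mrps26 at -0.07, 0.02, 0.10 and 0.05. For Mrpl22 it had the opposite sign, at -0.09, -0.03, -0.13 and -0.06, and for Mrpl15 it was lower at 1 day, at -0.27 (adjusted P = 0.0073). The second probe of Mrps14, with a mean signal of 68 units, fell by 0.46 from 1 to 7 days (adjusted P = 0.0241), while the brighter one changed by -0.03. This fall did not pass with the slide as a fixed block. Which transcript each probe binds was not analysed here, so a ratio named for 1 of these genes is that of 1 probe.

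**Figure D4:**
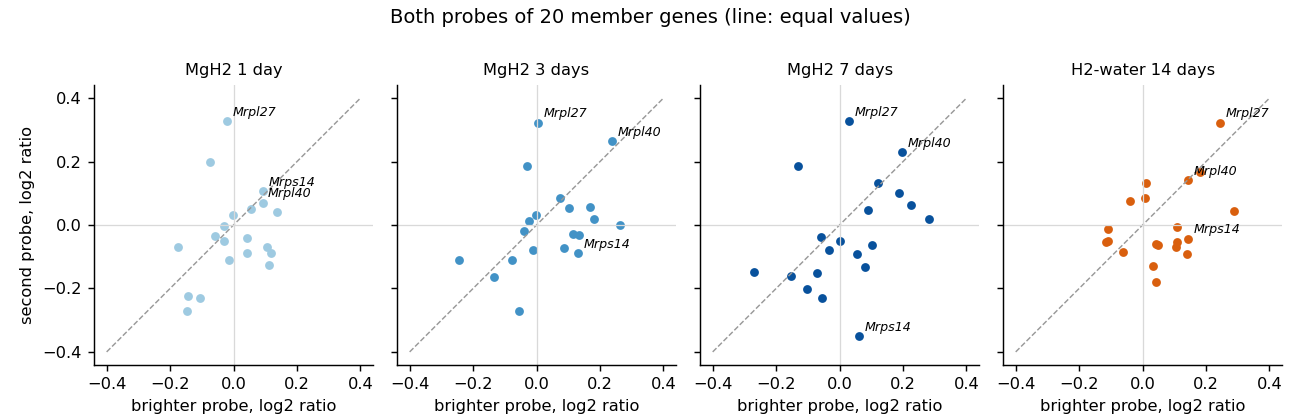
Mean log2 ratio of the brighter probe (horizontal axis) against the second probe (vertical axis) for the 20 members with both probes above background on all arrays, 1 panel per group; the dashed line marks equal values. Mrpl40 lies near the line in each panel, and Mrpl27 lies above it in the MgH2 panels.

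The ratios after H2-water were set beside those after MgH2, whose controls had been treated differently. Over the 77 members the mean log2 ratios after H2-water and after MgH2 had Pearson correlations of 0.74 at 1 day, 0.72 at 3 days and 0.65 at 7 days (Spearman 0.74, 0.75 and 0.69). Over all 18420 probes above background on all arrays the correlations were 0.33, 0.29 and 0.31. The subunits of oxidative phosphorylation gave 0.81, 0.81 and 0.78 over 75 genes and the cytosolic ribosomal proteins 0.73, 0.71 and 0.66 over 79 genes, so that a value of this size was not particular to the mitochondrial ribosome. The points share the probe and the dye orientation, and genes are not independent replicates. A dye bias of the probe and a shared response to H2 cannot be told apart here.

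**Figure D5:**
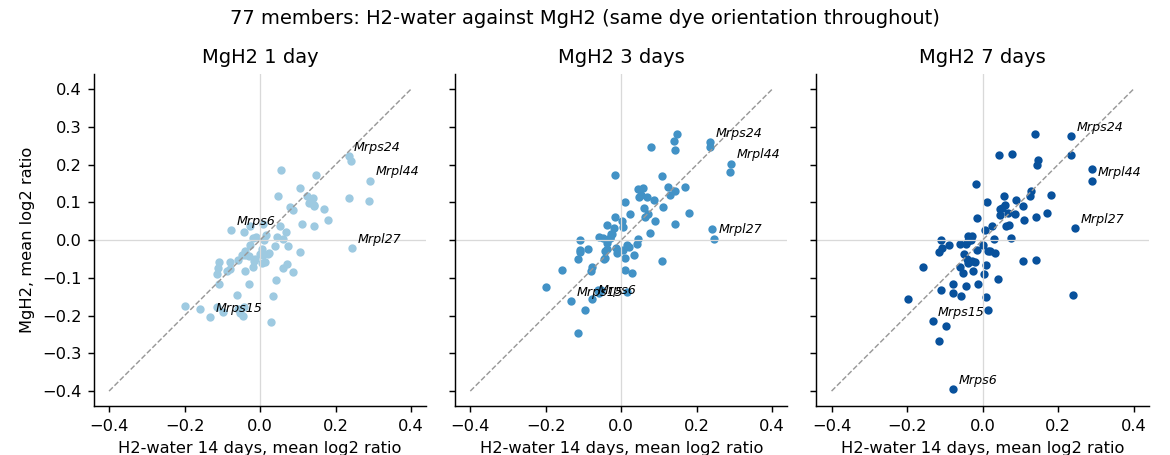
Mean log2 ratio of the 77 members after H2-water (horizontal axis) against that at 1, 3 and 7 days of MgH2 (vertical axes, 1 panel each); the dashed line marks equal values. Mrps24 and Mrpl44 lie at the upper right and Mrps15 at the lower left in each panel, and Mrps6 leaves the others at 7 days.

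Subunits that carry other names were measured too. Over all probes 5.14%, 12.3%, 15.3% and 4.93% were called higher in the 4 groups. The lower calls made up 4.21%, 11.1%, 14.2% and 3.9%, and these shares stand beside each list that follows. Of Dap3, Ptcd3, Chchd1, Aurkaip1 and Gadd45gip1, 0 were called higher in any group, and Aurkaip1, a small subunit protein specific to mitochondria, was the only one called lower, with means of -0.15, -0.11, -0.13 and -0.18 in the 4 groups (adjusted P = 0.0153, 0.0239, 0.00831 and 0.00554). Assembly factors, which modify ribosomal RNA and join the subunits, were called higher and lower in 1 and 1 of 25 genes at 1 day, 5 and 3 of 25 at 3 days, 5 and 4 of 25 at 7 days and 2 and 0 of 24 after H2-water. Trub2, a pseudouridine synthase, was higher in all 4 groups, with means of 0.21, 0.18, 0.23 and 0.37. Mpv17l2, needed for assembly, rose by 0.24 between 1 and 7 days (adjusted P = 0.0346), but did not pass with the slide as a fixed block.

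Of 15 translation factors, 1, 2, 2 and 2 were called higher and 1, 1, 4 and 0 lower in the 4 groups. Lrpprc, which stabilises mitochondrial messenger RNA, was higher in each, with means of 0.30, 0.33, 0.27 and 0.22. Tsfm, the exchange factor of the mitochondrial elongation factor Tu, was lower under MgH2, with means of -0.25, -0.27 and -0.34, and its mean of -0.11 after H2-water did not pass (adjusted P = 0.136). Oxa1l, which inserts newly made proteins into the inner membrane, rose by 0.21 from 1 to 7 days of MgH2 (adjusted P = 0.0187), but did not pass with the slide as a fixed block. The mitochondrial aminoacyl-tRNA synthetases had medians of -0.07, -0.03, -0.06 and 0.01, with 0, 1, 0 and 2 called higher and 1, 3, 6 and 0 lower, of 20 genes tested in the MgH2 groups and 18 after H2-water.

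Of 15 regulators of mitochondrial biogenesis 1, 4, 5 and 1 were called higher and 2, 0, 0 and 1 lower in the 4 groups, and at 7 days Ppargc1a and Nrf1 had higher ratios than any mitochondrial ribosomal protein. Ppargc1a, the PGC-1α gene, had log2 ratios of 0.02, 0.28 and -0.08 at 1 day, 0.42, 0.89 and 0.43 at 3 days and 0.98, 0.60 and 0.74 at 7 days of MgH2, and passed at 3 and 7 days (adjusted P = 0.033 and 0.00768). After H2-water its arrays gave 0.46, -0.58 and 0.09, on both sides of 0. A second, dimmer probe of Ppargc1a gave means of -0.23, 0.77, 1.30 and -0.03. Nrf1, nuclear respiratory factor 1, had means of 0.15, 0.29, 0.48 and 0.19 in the 4 groups (adjusted P = 0.0249, 0.00061, 1.14e-05 and 0.00954). Its ratio rose by 0.33 from 1 to 7 days (adjusted P = 0.012), but none of the probes tested passed in that difference with the slide as a fixed block. The Nrf1 probe was dim, with a mean signal of 133 units, and the other 2 probes of the gene were above background on 3 and 0 arrays. Tfam, which packs and transcribes mitochondrial DNA, was lower at 1 day with a mean of -0.19 (adjusted P = 0.0259) and did not pass later. Gabpa, Yy1 and Esrra passed in none of the groups, with means between -0.12 and 0.11. Polrmt, the RNA polymerase of mitochondria, had means of 0.27 at 3 and 0.27 at 7 days (adjusted P = 0.00231 and 0.00134).

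The 2 large sets beside the mitochondrial ribosome were described for scale. Of 75 subunits of oxidative phosphorylation 12, 24, 17 and 19 (16%, 32%, 22.7% and 25.3%) were called higher in the 4 groups. Lower calls numbered 6, 2, 2 and 3 (8%, 2.67%, 2.67% and 4%), and the medians were 0.01, 0.07, 0.04 and 0.04. Of all probes, 5.14%, 12.3%, 15.3% and 4.93% were higher and 4.21%, 11.1%, 14.2% and 3.9% lower. The excess of higher calls at 3 days and after H2-water was thus not particular to the mitochondrial ribosome. Of the cytosolic ribosomal proteins 10 and 2 of 80 (12.5% and 2.5%) were higher and lower at 1 day and 15 and 6 of 80 (18.75% and 7.5%) at 3 days. At 7 days 16 and 8 of 80 (20% and 10%) were, and after H2-water 3 and 5 of 79 (3.8% and 6.33%). Their medians were 0.03, 0.004, 0.01 and -0.03. No member of either set passed in a difference between days, beside 4 mitochondrial ribosomal proteins from 1 to 7 days. In that difference 3.25% of all probes were called higher and 3.69% lower. At an unadjusted P under 0.05 there were 10 of 75, 5 of 80 and 13 of 77 genes, beside 4828 of 19177 probes. The share was smaller in each of the 3 sets than over all probes.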

How the data were processed

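Liver RNA of 12 two-colour arrays was analysed. Per the file headers the authors scanned them with Agilent Feature Extraction 10.10.1.1 (9 arrays) or 10.7.3.1 (3 arrays), and the submitters' processing notes name version 10.10.1. The deposited intensity of each channel was background-subtracted and dye-normalised by that software, and the deposited log10 ratios and the deposited log2 value table hold the same ratios (largest difference 1.39e-06). Per the methods the authors scaled arrays by total intensity.

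From the 43020 spots without controls, spots marked as outliers were dropped and spots of a probe averaged as log2 of Cy5 over Cy3 intensity, with no rescaling. RefSeq records gave 1 symbol for 26761 probes (67.9%). Probes whose signal exceeded background for both dyes on each array of a comparison were tested with limma 3.58.1 in R 4.3.3: 1 fit of 12 arrays with a mean per group, each mean against 0, and differences between days of MgH2, two-sided, with Benjamini-Hochberg adjustment over all probes tested and a call at 0.05. H2-water was not tested against MgH2.

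Members named are all those called in a direction when at most 10 were, otherwise the 5 largest, with the 2 highest and 2 lowest means of a group. Members, gene lists and motifs were chosen with earlier results of these data known. Each pool mixed 3 mice, so P-values measure the spread between pools, not between animals. The number of arrays limits the precision.

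On simulated data with 200 of 18420 probes changed 1.5-fold, 83.0%, 83.0%, 86.5% and 80.0% were recovered at 1, 3 and 7 days and after H2-water, with 5.14%, 6.22%, 6.49% and 5.33% of calls false; no member's mean changed that much. Replicate numbers in the labels were checked for pairing: deviations from the group means of same-numbered MgH2 arrays correlated at 0.37 to 0.65 in the ratio (9 pairs), at 0.32 to 0.67 in the control channel and at -0.30 to 0.18 in the treated channel. The numbers may therefore pair these arrays, and the days of MgH2 may share control pools. The fit behind the P values given in the results did not use this pairing, which entered only as the replicate block among the alternatives. Alternatives were channel totals, median-centred arrays, normexp with offset 50 and loess, no filter on dim probes, marked spots kept, the value table, all probes of a gene, slide and replicate blocks, only the arrays compared, and arrays left out in turn. The labels give 0.9 mg/kg MgH2, as the study's account of this experiment does, while its methods give other doses.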

Additional observations from a re-analysis of the deposited data

Results flagged for a closer look

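In 4 members the ratio differed between 1 and 7 days of MgH2 by the test of the difference itself, limma over 12 arrays with Benjamini-Hochberg adjustment: Mrpl47 by 0.33, Mrps6 by -0.42, Mrpl35 by -0.35 and Mrpl50 by -0.19 log2 units. All 3 arrays of 7 days lay above all 3 of 1 day for Mrpl47 and below them for the other genes. Of all probes, 15.4% lay wholly above and 13.5% wholly below in the same way. The calls, 1.3% of members higher and 3.9% lower, stand beside 3.25% and 3.69% of all probes. With the slide as a fixed block none of the 4 genes passed.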

How the results depend on the processing

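Of the 49 values of named members, 0 reversed under any alternative. All 49 kept their side of the threshold with marked spots kept and with the value table, 48 with a slide random block and 48 with the replicate block (1 newly passed in each), 46 with normexp and loess and 43 with channel totals, while 19 no longer passed with median-centred arrays, 22 without the filter on dim probes and 43 with only the arrays compared; with all probes of a gene 5 moved by more than the spread between arrays. Calls at 1, 3 and 7 days and after H2-water numbered 15, 24, 24 and 14. They were 7 and 11 at 1 and 3 days with median-centred arrays; 3, 11 and 7 at 1 and 3 days and after H2-water without the filter; and 0, 0, 3 and 2 in the 4 groups with only the arrays compared, which leaves 3 arrays for the spread. With arrays left out in turn they ranged from 2 to 6, 10 to 14, 13 to 17 and 3 to 4; at 7 days the fall passed 1.5 times without array 1 (14) or 2 (13), and in the other groups whichever array was left out. The replicate block gave 18, 29, 32 and 17 calls and 6 instead of 4 from 1 to 7 days; no call was lost among the named members. From 1 to 7 days there were 2 calls with median-centred arrays, 0 without the filter, 0 with only the arrays compared, 0 with the slide as a fixed block (chosen after seeing the data) and 0 to 3 with arrays left out. Medians moved with scaling: to -0.0653 at 1 day with channel totals, to -0.0751 at 1 day, -0.114 at 7 days and 0.0769 after H2-water with median-centred arrays, and to -0.0376 from 1 to 7 days and -0.13 from 3 to 7 days with the latter. After H2-water the median was -0.0115 with channel totals, 0.0187 with normexp and loess, 0.00538 with all probes of a gene and 0.00304 to 0.0213 with arrays left out. The cause of these shifts was not tested. The number of arrays and the signal over background limit what could be detected; Mrpl21 was not well above background on any array.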

Other observations

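From 1 to 7 days of MgH2, 12 of 77 members had all 7-day arrays above all 1-day arrays and 7 had them below, beside 15.4% and 13.5% of all probes above background on all arrays. From 1 to 3 days the counts were 19 and 1, beside 10.5% and 8.91% of all probes, although limma called 0 members in that difference. At an unadjusted P under 0.05 there were 10 members, beside 2964 of 19228 probes. From 3 to 7 days they were 0 and 5, beside 4.27% and 3.95%.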
